A study of Homo sapiens with 54 samples.

Results

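The cells described here are 320 non-dividing macrophages from the day 12 single-cell library with the highest counts of CCL3, CCL4 and IL1B. The library held 8159 barcodes, of which 7961 had at least 1000 unique molecular identifiers (UMIs, 1 per captured RNA molecule), at least 500 genes and under 15% mitochondrial counts. Macrophages were the 2337 cells with at least 5 UMIs summed over CD14, CD163, C1QA, C1QB and C1QC. Of these, 962 had fewer than 3 UMIs of MKI67 and TOP2A, markers of dividing cells. They were ranked by a score, the share of a cell's UMIs that came from CCL3, CCL4 and IL1B, and split into an upper tercile of 320 cells, a middle tercile of 322 and a lower tercile of 320. The 320 cells of the upper tercile, called chemokine-high below, were chosen by these measured UMI counts and were compared with the lower tercile, and also with the middle one. They are 320 of the 26455 cells that passed the filters in the 3 single-cell libraries.

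The study made macrophages from H1, an established human embryonic stem cell line, in a protocol labelled 3D PMS and, for comparison, in one labelled 2D. Single-cell RNA was sequenced on the 10X Genomics platform from 3D cultures at days 7, 9 and 12, with 1 library per day. Bulk polyA RNA of 3D macrophages at days 12 (4 libraries), 16, 19 and 23 (3 libraries each, the cultures not labelled FBS) and of 2D macrophages at day 12 (4 libraries) was sequenced by SMART-seq2. All groups used here carry the cell line label H1 and the cell type label macrophage, and the labels name no edit or stimulus for them. The labels do not say whether the bulk libraries of a group came from separate cultures, so p-values measure only the spread between these libraries. H1 is 1 line, and every value below belongs to it.

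CCL3 and CCL4 are CC chemokines that attract monocytes, macrophages and lymphocytes, and IL1B is a cytokine made as an inactive precursor that inflammasome-driven cleavage turns into its secreted form. In macrophages, sensing of microbial products, cytokines or damaged cells releases transcription factors of the NF-kB family from the inhibitor IkB-alpha (NFKBIA). NF-kB, with AP-1, then switches on chemokine and cytokine genes together with the genes of its own inhibitors.

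Genes at least 2-fold higher than in the lower tercile include CXCL8, CXCL2, CXCL3, CCL20 and NFKBIA, and NFKBIA is a standard NF-kB target gene. Their proximal promoters, and those of the ranking genes CCL3 and IL1B, are shown as examples that carry and that lack the short letters by which NF-kB and AP-1 sites are commonly searched. They were chosen with the matches known. Each run is the 150 bases before the RefSeq start on the gene's own strand, 5′ to 3′, in build GRCh38.p14. Capitals mark matches, on either strand, to GGNNNTTCC (NF-kB type) or TGANTCA (AP-1 type). CXCL8 lies at chr4:73740419-73740568 on the plus strand, CCL20 at chr2:227813692-227813841 on the plus strand, CXCL2 at chr4:74099196-74099345, CXCL3 at chr4:74038690-74038839, NFKBIA at chr14:35404750-35404899, CCL3 at chr17:36090144-36090293 and IL1B at chr2:112836780-112836929, these 5 on the minus strand.
CXCL8: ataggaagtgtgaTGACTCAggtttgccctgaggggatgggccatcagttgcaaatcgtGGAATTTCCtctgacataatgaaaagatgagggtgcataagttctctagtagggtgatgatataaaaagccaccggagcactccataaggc
CXCL2: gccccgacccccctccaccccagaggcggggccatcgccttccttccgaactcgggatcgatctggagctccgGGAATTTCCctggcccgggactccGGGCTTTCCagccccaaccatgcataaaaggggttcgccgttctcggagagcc
CXCL3: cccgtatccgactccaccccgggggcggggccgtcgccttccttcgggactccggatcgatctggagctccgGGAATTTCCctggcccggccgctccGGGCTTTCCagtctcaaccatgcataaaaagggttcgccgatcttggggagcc
CCL20: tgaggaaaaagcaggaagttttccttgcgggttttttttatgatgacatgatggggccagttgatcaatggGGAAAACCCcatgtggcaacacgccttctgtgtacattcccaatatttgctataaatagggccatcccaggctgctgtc
NFKBIA: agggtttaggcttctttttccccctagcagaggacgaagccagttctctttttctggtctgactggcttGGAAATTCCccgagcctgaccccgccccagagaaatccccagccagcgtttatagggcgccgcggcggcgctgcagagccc
CCL3: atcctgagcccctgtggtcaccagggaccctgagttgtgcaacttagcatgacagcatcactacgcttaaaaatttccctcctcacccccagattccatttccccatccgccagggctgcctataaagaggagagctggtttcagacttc
IL1B: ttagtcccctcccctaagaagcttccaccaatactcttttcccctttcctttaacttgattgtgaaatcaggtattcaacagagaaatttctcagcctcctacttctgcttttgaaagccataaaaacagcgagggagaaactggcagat

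The run of CXCL8 holds both kinds of match, with the NF-kB-type match GGAATTTCC 91 to 83 bases before the start and the AP-1-type match TGACTCA 137 to 131 bases before it. CXCL2 and CXCL3 each hold 2 NF-kB-type matches in nearly the same surroundings. CCL20 holds 1, read on the opposite strand, and NFKBIA holds 1 at 81 to 73 bases before its start. The runs of CCL3 and IL1B hold neither. Of the other 4 promoters searched in the same window, IL6 holds 1 NF-kB-type match, IL1A holds 1 AP-1-type match, and TNF and PTGS2 hold neither. Over 250 bases before the start, 54 of the 153 leading genes with a RefSeq promoter (189 genes at least 2-fold higher than in the lower tercile, defined below) held an NF-kB-type match, which is 35.3%. The share was 20.3% of 3173 promoters of genes at 50 CPM (UMIs of a gene scaled to a common total per pool) or more, 16.1% of 423 promoters of genes at least 1.5-fold lower and 17.1% of all 27305 promoters in the table. AP-1-type matches stood in 10.5% of leading promoters, 4.48% of those at 50 CPM or more and 6.59% of all. The TATA-box letters TATAAA stood in 18.3%, 7.50% and 11.2% of the same sets. The 3 motifs were counted separately and matches may overlap. A match is a description of the sequence and not evidence of binding. CCL4 is named without a promoter.

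The label was checked against macrophage genes that the rule did not use. CSF1R, the receptor for the macrophage growth factor M-CSF, stood at 385, 419 and 339 CPM in the upper, middle and lower terciles and at 8.50 in stroma reference cells (defined below). The lysosomal glycoprotein gene CD68 stood at 312, 280, 234 and 15.7 CPM, and MS4A7 at 303 CPM in chemokine-high and 2.31 in stroma cells. Of the genes that the rule did use, per 10000 UMIs the median sum of CD14, CD163, C1QA, C1QB and C1QC was 32.2 in chemokine-high cells, 23.2 in the middle and 18.5 in the lower tercile. Erythroid HBB, the mast cell genes TPSAB1, TPSB2, CPA3 and MS4A2, the eosinophil gene SIGLEC8, the lymphoid genes CD3E, CD3G, GNLY and MS4A1, and the endoderm genes AFP, TTR and APOB had 0 UMIs in all 320 cells. Other members of these lists were present at low levels. Of the 12 markers in each list, 1 erythroid, 5 mast, basophil and eosinophil, 4 lymphoid and 7 endoderm markers were at 0. The summed lists stood at 169, 101, 115 and 8.41 CPM, against 1883, 811, 92.9 and 8.10 in the lower tercile. Median depth was alike, with 22901.5 UMIs per chemokine-high cell, 23267.5 in the middle and 23229 in the lower tercile, and median mitochondrial shares were 4.73%, 4.75% and 4.88%. The number of genes per cell was 4974.5, 5293 and 5532 at the median, and 2083, 2202 and 2282 when each cell was thinned to 5000 UMIs.

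The terciles differed in how many cells carried RNA of other cell types. Marker-rich cells had at least 20 UMIs per 10000 from markers of other cell types. These were stromal, erythroid, megakaryocyte, mast, basophil, eosinophil, lymphoid, endoderm and progenitor markers, without endothelial or granulocyte markers. Such cells made up 15 of 320 chemokine-high cells (4.69%), 50 of 322 in the middle (15.5%) and 89 of 320 in the lower tercile (27.8%). A doublet caller marked 7, 29 and 43 cells. Summed stromal markers stood at 556, 2252 and 3981 CPM and summed erythroid markers at 169, 378 and 1883 CPM. The library itself held 3926 stroma reference cells (at least 20 UMIs of COL1A1, COL1A2, COL3A1, DCN and LUM, under 5 macrophage UMIs), whose summed stromal markers reached 23156 CPM. The counts over all genes and those list counts that changed are therefore also given without the marker-rich cells, a comparison of 305 with 231 cells added after the data had been seen. Day 12 shares 17 barcodes with day 7 and 24 with day 9, and among the 320 cells 1 barcode is shared with day 7 and 0 with day 9.

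The score formed a continuum with no gap at the division. Per 10000 UMIs of a cell, CCL3, CCL4 and IL1B together counted 72.0 to 442 in chemokine-high cells (median 109), 25.1 to 72.0 in the middle (median 49.3) and 0 to 24.994 in the lower tercile (median 5.28). The last cell inside the upper tercile scored 72.0081 and the first outside 72.0025. Within 10% of the dividing score lay 90 of the 962 cells (9.36%), so these cells are a range of the score. Whether they form a separate type was not tested. In stroma reference cells, which should lack the 3 genes, the 99th percentile was 7.69 and 1 cell passed the dividing score. Of the lower tercile, 199 cells scored at or below that stroma percentile. The 3 genes made up 1.19% of all UMIs in chemokine-high cells, 0.486% in the middle and 0.0735% in the lower tercile.

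**Figure D1:**
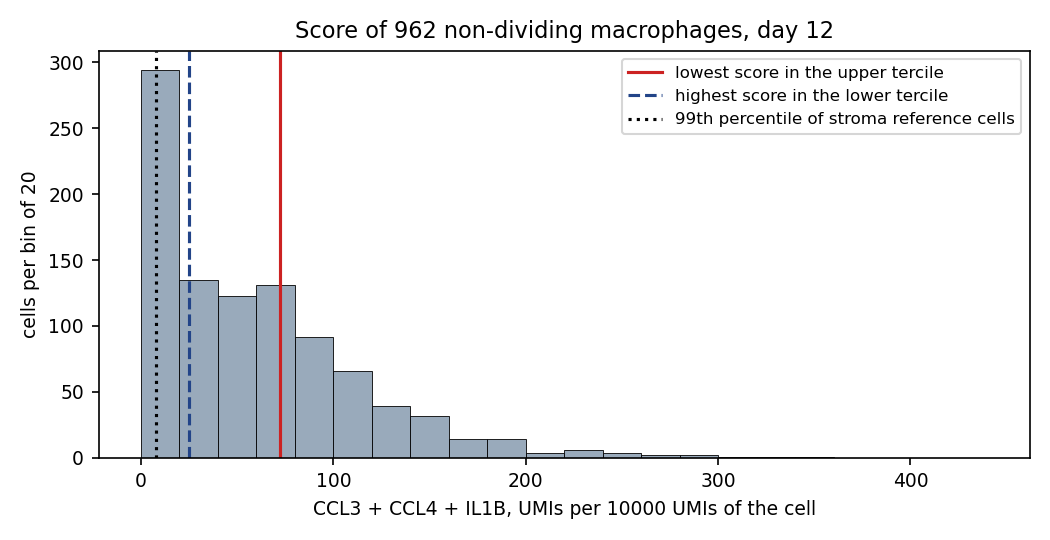
Histogram of the score of the 962 non-dividing macrophages of day 12. The x axis is the summed UMIs of CCL3, CCL4 and IL1B per 10000 UMIs of the cell and the y axis the number of cells per bin of 20. Lines mark the lowest score of the upper tercile (72.0), the highest of the lower tercile (24.994) and the 99th percentile of stroma reference cells (7.69), and cells lie on both sides of the upper line without a gap.

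The levels of the 3 ranking genes follow from the rule and are given as a description. CCL3 (ENSG00000277632, chromosome 17, 36088256 to 36090143) counted 39.3 UMIs per 10000 at the median chemokine-high cell, with a lowest value of 1.33 and a highest of 171. Its median was 14.5 in the middle and 1.21 in the lower tercile. CCL4 (ENSG00000275302, chromosome 17, 36103827 to 36105614) had medians of 38.3, 12.97 and 0.462, and its chemokine-high range was 6.23 to 214. IL1B (ENSG00000125538, chromosome 2, 112829751 to 112836779) had medians of 33.3, 19.1 and 1.71, and its chemokine-high range was 0 to 111. In pooled CPM, CCL3 stood at 4310, 1503 and 241, CCL4 at 4114, 1343 and 150 and IL1B at 3508, 2012 and 344. Of cells thinned to 5000 UMIs, 99.7% of chemokine-high and 49.5% of lower-tercile cells had a UMI of CCL3. The share was 12.8% in stroma reference cells, whose unthinned median depth was 13932.5 UMIs.

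Ranking by part of the score left the rest of it high. When cells were ranked by IL1B alone, CCL3 was 2.83 and CCL4 2.90 higher (log2) in the upper than in the lower tercile, and 232 of the 320 cells (72.5%) stayed in the upper tercile. When cells were ranked by CCL3 and CCL4, IL1B was 2.47 higher and 285 cells (89.1%) stayed. With cells ranked on a random split of their UMIs and measured on the other, CCL3 was 4.19, CCL4 4.69 and IL1B 3.28 higher. There 301 of the 320 cells (94.1%) stayed in the upper tercile. These are the genes and cells of the rule, so the values describe the score and test nothing. Because free RNA in the droplets can give UMIs in cells that do not express a gene, the share in stroma cells is given beside each detection share.

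Across all genes with at least 50 CPM in either tercile (3882 genes), 354 were at least 1.5-fold higher in chemokine-high than in lower-tercile cells (9.12%) and 541 at least 1.5-fold lower (13.9%). At least 2-fold higher were 192 genes (4.95%), and without the 3 ranking genes these are the 189 leading genes. Because the rule ranked the same cells, these counts describe the terciles and nothing is read from them. The shares of 9.12% higher and 13.9% lower are the background for the list counts against the lower tercile below. With 1 library there is no test, and intervals on ratios (95%, exact) cover counting error only. The median log2 ratio of all genes was -0.13; dividing by it gave 443 genes higher and 366 lower. Without the marker-rich cells, 321 genes were higher (8.51%), 183 of them at least 2-fold (4.85%), and 374 lower (9.92%) of 3772. All 189 leading genes stayed at least 1.5-fold higher there, 164 of them at least 2-fold, with a median log2 ratio of 1.501 against -0.13 for all genes.

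Other chemokines were high in the same cells. Of 5 CC chemokines at 50 CPM or more beside CCL3 and CCL4, 4 were at least 1.5-fold higher than in the lower tercile. CCL3L1 and CCL4L2, copies of the ranking genes, are among these 4. CCL20, the ligand of CCR6 that attracts dendritic cells and Th17 cells, stood at 436 CPM in chemokine-high, 193 in middle and 22.6 in lower-tercile cells, a log2 ratio of 4.27 (4.06 to 4.49) to the lower. CCL3L1 (1978, 632 and 55.5 CPM) and CCL4L2 (2446, 804 and 71.8 CPM) are near-identical copies of CCL3 and CCL4, and how reads were divided between the copies is uncertain. The ratios of these copies may therefore follow from the rule. CCL2, the main monocyte attractant, was broadly present, at 2391, 1258 and 1147 CPM, with a log2 ratio of 1.06 to the lower tercile and 0.93 to the middle.

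All 5 CXC chemokines at 50 CPM or more were at least 1.5-fold higher (median log2 ratio 2.90). CXCL8, which attracts neutrophils, counted 27.7 UMIs per 10000 at the median chemokine-high cell (0 to 166), 18.0 in the middle (0 to 130) and 1.12 in the lower tercile (0 to 52.1). The ranges overlap, and the log2 ratio of pooled CPM (2927 against 393) was 2.90 (2.84 to 2.95). CXCL2 stood at 250 against 17.2 CPM (log2 3.86), CXCL3 at 192 against 15.6 (3.62) and CXCL1 at 310 against 69.7 (2.16), 3 related ligands of CXCR2.

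Cytokines beside IL1B were also high, and several were detected in only some of the cells. All 3 members of the interleukin 1 family at 50 CPM or more beside IL1B were higher. IL1A, which acts on the same receptor as IL1B, stood at 404, 272 and 31.7 CPM (log2 3.67 to the lower tercile), and the receptor antagonist IL1RN at 334, 237 and 87.0 CPM (1.94). Of 7 other cytokines, 6 were higher, and 5 of 8 without the marker-rich cells. TNF, the NF-kB-activating cytokine, stood at 298, 108 and 26.5 CPM (3.49; 3.29 to 3.70), and 56.8% of thinned chemokine-high cells had a UMI of it against 12.2% of lower-tercile and 1.47% of stroma cells. IL6, the acute-phase cytokine, stood at 244, 112 and 16.6 CPM (3.88; 3.63 to 4.14) and was detected in 39.4%, 6.11% and 2.11% of the same 3 sets. CCL20 was likewise uneven, with a UMI in 43.8%, 4.82% and 1.34%. IL10, the anti-inflammatory cytokine, remained low at 23.2, 14.6 and 5.15 CPM, under the floor of the comparison.

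**Figure D2:**
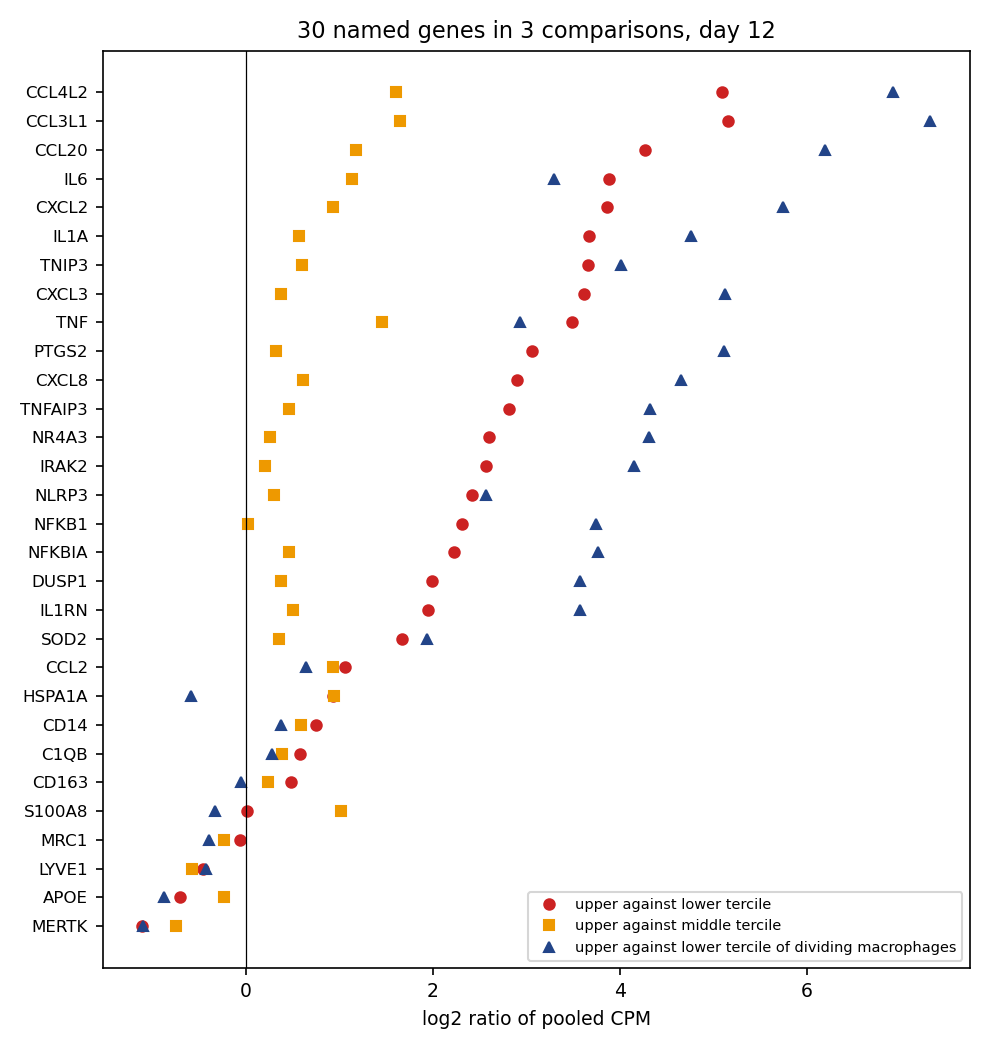
Log2 ratios of pooled CPM for 30 named genes (y axis) in 3 comparisons (x axis): upper against lower tercile (circles), upper against middle tercile (squares) and upper against lower tercile of dividing macrophages (triangles). Chemokines and cytokines lie far to the right of 0 in circles and triangles, the squares of NFKB1 (0.02) and IRAK2 (0.21) lie near 0, and MERTK lies to the left of 0 in all 3.

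NF-kB genes and the genes that restrain NF-kB were high together. All 11 NF-kB subunits and feedback inhibitors at 50 CPM or more were at least 1.5-fold higher than in the lower tercile (median log2 ratio 1.92, and 11 of 11 without the marker-rich cells). NFKBIA (ENSG00000100906), the inhibitor that returns NF-kB to the cytoplasm, counted 12.7 UMIs per 10000 at the median chemokine-high cell (0 to 47.3), 8.76 in the middle (0 to 45.7) and 1.33 in the lower tercile (0 to 22.2). Its log2 ratio was 2.23 (2.16 to 2.29), and 98.1% of thinned cells had a UMI of it against 52.4% in the lower tercile and 26.6% in stroma. TNFAIP3, the ubiquitin-editing enzyme A20, stood at 541, 393 and 76.7 CPM (2.82). TNIP3, which binds A20, stood at 88.4, 58.4 and 6.99 CPM (3.66). The subunit gene NFKB1 stood at 1028, 1010 and 208 CPM, so its ratio was 2.31 to the lower tercile and 0.02 to the middle.

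Of 11 adhesion and survival targets of NF-kB, 8 were higher and 1 lower, and without the marker-rich cells 8 of 10 were higher and 0 lower. BCL2A1, which blocks apoptosis, stood at 409, 231 and 68.5 CPM (2.58), SOD2, the mitochondrial superoxide dismutase, at 1675, 1314 and 527 (1.67) and PLAUR, the urokinase receptor, at 965, 763 and 244 (1.98). Of 14 restraints of MAP kinase signalling and RNA stability, 12 were higher and 0 lower (median 1.56). DUSP1 and DUSP2, phosphatases that switch off MAP kinases, stood at 640 against 162 and 652 against 152 CPM. Of 6 Toll-like receptors and co-receptors, 4 were higher, and 3 without the marker-rich cells. IRAK2, a kinase downstream of Toll-like and interleukin 1 receptors, stood at 230, 199 and 38.7 CPM (2.57). NLRP3, the sensor of an inflammasome, stood at 228, 185 and 42.7 CPM (2.42). It was the 1 gene of 8 in the inflammasome list that was higher, and 1 other was lower. These list counts lie near the shares over all genes (9.12% higher and 13.9% lower).

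Immediate early genes are transcribed soon after a stimulus, and tissue dissociation can also induce them. Their ratios were uneven. Of 11 AP-1 and ATF subunits, 7 were higher (median 1.02), and 9 without the marker-rich cells. Of 18 EGR, NR4A, KLF and IER genes 12 were higher and 2 lower (median 0.90). NR4A3, a nuclear receptor, stood at 455, 381 and 74.97 CPM (2.60). Genes often read as signs of dissociation spanned small and large ratios. FOS stood at 523, 493 and 376 CPM (0.48) and EGR1 at a log2 ratio of 0.47, while JUN (1.02), ATF3 (1.53), FOSB (1.59) and DUSP1 (1.99) had larger ones. HSPA1A stood at 50.9, 26.5 and 26.6 CPM (0.93). Without the marker-rich cells, FOS was at 0.92, EGR1 at 1.21 and FOSB at 2.42. Of 10 heat shock chaperones, 1 was higher, near the 9.12% over all genes, and the median was -0.01. The part of dissociation in these values was not tested.

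**Figure D3:**
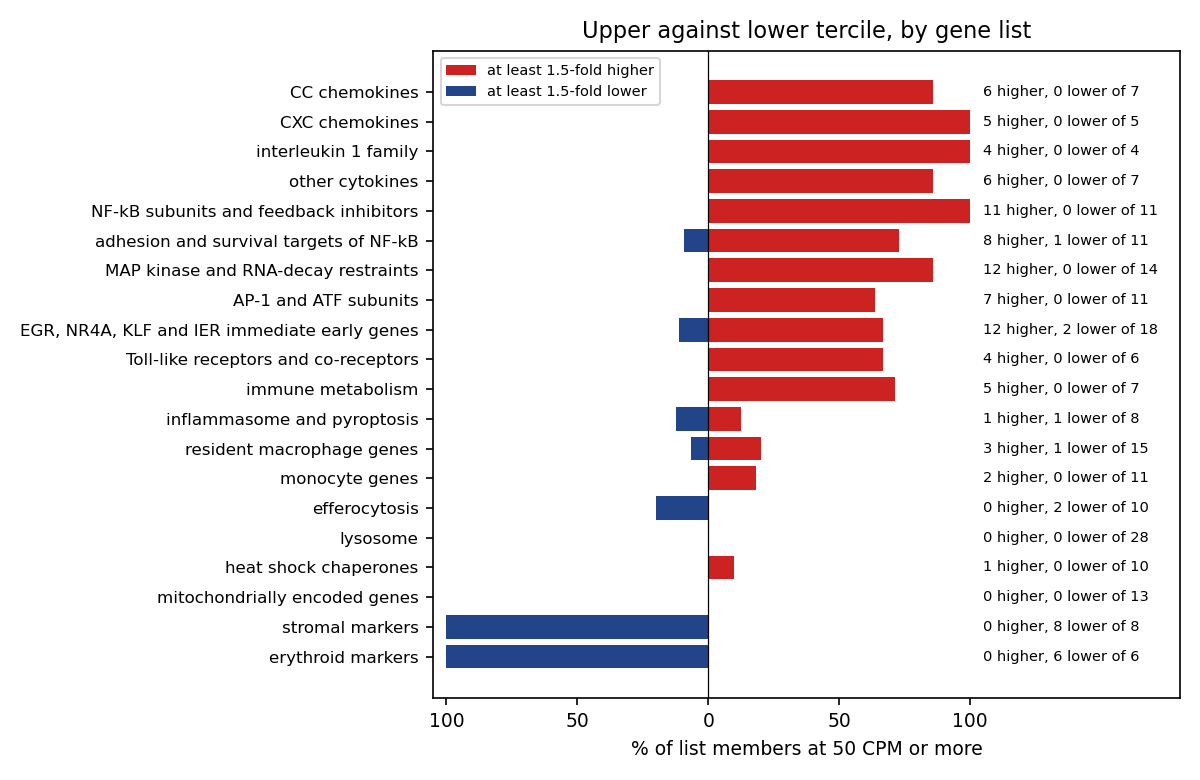
Share of list members at 50 CPM or more (x axis, %) that were at least 1.5-fold higher (right) or lower (left) in the upper than in the lower tercile, for 20 gene lists (y axis), with the counts beside each bar. All 5 CXC chemokines and all 11 NF-kB genes lie to the right, 0 of 28 lysosomal genes lie on either side, and all 8 stromal and 6 erythroid markers lie to the left.

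Genes of macrophage identity differed less. Of 15 resident macrophage genes, 3 were higher and 1 lower than in the lower tercile (median log2 ratio 0.23), and without the marker-rich cells 0 were higher and 2 lower. Over all genes 9.12% were higher and 13.9% lower, or 8.51% and 9.92% without the marker-rich cells. CD14, the lipopolysaccharide co-receptor, stood at 872, 580 and 521 CPM (0.74), the complement gene C1QA at 1004, 768 and 623 (0.69) and the haemoglobin scavenger receptor CD163 at 351, 299 and 252 (0.48). These 3 genes also chose the macrophages. MRC1, the mannose receptor, stood at 615, 725 and 642 CPM (-0.06) and LYVE1, a hyaluronan receptor of resident macrophages, at 71.5, 106 and 98.8 (-0.47, and -0.57 to the middle). MERTK, the receptor by which macrophages take up dying cells, was lowest in chemokine-high cells, at 50.9, 85.3 and 110 CPM. Its log2 ratio was -1.11 to the lower tercile, -0.75 to the middle and -1.36 without the marker-rich cells. TXNIP, a thioredoxin inhibitor, was low in the same way, at 83.7, 120 and 177 CPM (-1.08). MARCO, a scavenger receptor for bacteria, stood at 478, 306 and 86.5 CPM (2.47).

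The 11 monocyte genes held 2 higher and 0 lower than in the lower tercile (2 and 1 without the marker-rich cells), with a median log2 ratio of 0.34. Against the middle tercile, 3 were higher and 0 lower. The alarmin genes S100A8 and S100A9 did not follow the score across the terciles. S100A8, an alarmin of monocytes and neutrophils, stood at 243, 121 and 241 CPM in the upper, middle and lower terciles, and S100A9 at 2438, 1453 and 1921. The RNA of S100A8 was concentrated in few cells, since 32 chemokine-high cells held 88.3% of its UMIs and 178 held none. The concentration was 86.5% in the middle and 92.4% in the lower tercile. Cells with more than 100 UMIs per 10000 of S100A8, S100A9 and FCN1 numbered 19, 6 and 16.

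Several other lists held no gene past the fold used. Of 28 lysosomal genes, 13 mitochondrially encoded genes, 21 nuclear respiratory chain genes and 5 interferon response genes, 0 were at least 1.5-fold higher or lower. The rest of the 24 interferon response genes listed did not reach 50 CPM. Of 7 genes of immune metabolism, 5 were higher (4 without the marker-rich cells), with NAMPT, which makes an NAD precursor, at 1634, 1664 and 464 CPM (1.82). Of 15 genes of sterol and fatty acid synthesis, 4 were higher and 2 lower, and without the marker-rich cells 3 of 16 were higher and 1 lower. FTH1, the ferritin heavy chain, stood at 12749, 10196 and 7552 CPM (0.76). No gene of DNA replication or mitosis reached 50 CPM in either tercile; the summed replication genes stood at 272, 245 and 342 CPM against 1372 in dividing macrophages, a class that the rule had removed.

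The lowest ratios belonged to genes of other cell types. The 12 genes with the smallest ratio included the fetal haemoglobin gene HBG2 (-4.29), the platelet genes PF4 (-4.26) and PPBP (-3.96), the desmosome gene DSP (-3.73) and the imprinted RNA H19 (-3.64). Without the marker-rich cells these ratios were 0.05, 0.36, 0.23, 0.00 and 0.08. HBG2, PF4 and PPBP are among the markers that define the marker-rich cells, so their change follows in part from the removal. They also did not reach 50 CPM in either tercile there. DSP and H19 are not among those markers. All 8 stromal and all 6 erythroid markers were lower than in the lower tercile. Without the marker-rich cells 3 stromal and 1 erythroid markers reached 50 CPM and 0 of them were lower. Both lists define the marker-rich cells, so this change too follows in part from the removal. COL1A1 went from -2.93 to 0.10. LDB2 and KDR, genes of endothelial cells, stood at 5.56 and 3.93 CPM in chemokine-high cells. Their ratios without the marker-rich cells were -2.83 and -2.48, with KDR under 50 CPM in both terciles. The summed endothelial markers did not follow these 2 genes, at 268 against 266 CPM there. Endothelial markers were not among those that define the marker-rich cells.

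Against the middle tercile the differences were fewer. Of 3556 genes, 40 were at least 1.5-fold higher in chemokine-high cells (1.12%), 139 lower (3.91%) and 11 at least 2-fold higher (0.309%). Of the 189 leading genes, 23 were at least 1.5-fold higher than in the middle, and all 189 were higher in the middle than in the lower tercile. Their median log2 ratio was 1.504 to the lower and 0.19 to the middle tercile. Of the CXC chemokines, 3 were still at least 1.5-fold higher (median 0.61), against 1 of the NF-kB genes (median 0.21) and 0 of the AP-1 subunits. TNF (1.46), CCL20 (1.17), IL6 (1.13) and CXCL1 (1.03) kept ratios above 1, and NAMPT (-0.03) and AREG (-0.33) did not. NFKB1 was thus at nearly the same level in the middle tercile, and CCL20, IL6 and TNF were not.

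Split into deciles of the score, the 962 cells showed the same order. CCL3, CCL4, IL1B, CXCL8, CCL4L2 and NFKBIA were higher at each of the 9 steps. CXCL8 went from 112 CPM in the lowest decile to 3712 in the highest and NFKBIA from 102 to 1385. NFKB1 went from 95.3 CPM to 1268 in decile 7 and stood at 884 in decile 10. NR4A3 (24.6, 504 and 450) and PTGS2, the inducible prostaglandin synthase (8.73, 277 and 228), were likewise highest in decile 7. MRC1 was highest there too, at 840 CPM, and stood at 552 in decile 10. The deciles share 1 library and the score ordered them, so the curves carry no test.

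**Figure D4:**
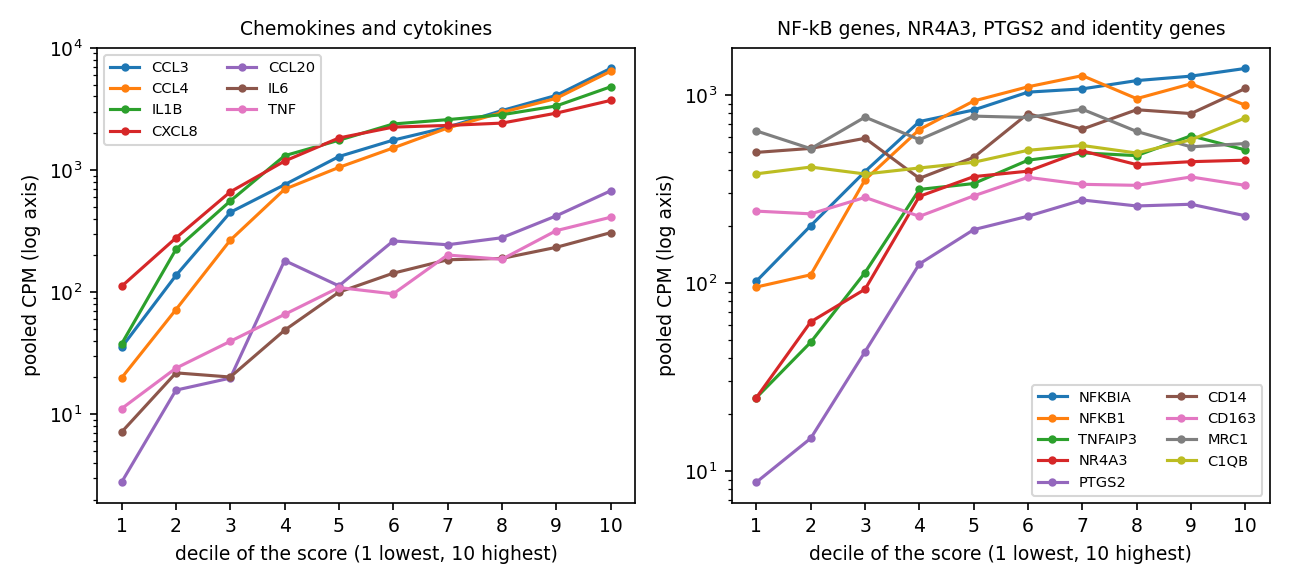
Pooled CPM on a log axis (y) in each decile of the score (x, 1 lowest to 10 highest) of the 962 non-dividing macrophages, each point a pool of 96 or 97 cells. CXCL8 climbs at every step to 3712 CPM on the left, while NFKB1, NR4A3, PTGS2 and MRC1 on the right are highest in decile 7.

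Among the 320 cells, CCL3 and CCL4 varied together and IL1B did not follow them. CCL3 was the largest of the 3 in 134 cells, CCL4 in 99 and IL1B in 87. Counts per cell were 91 UMIs for CCL3 at the median (1 to 338), 86 for CCL4 (10 to 407) and 75 for IL1B (0 to 318), with 2 cells at 0 for IL1B. Across the 320 cells, Spearman's rho was 0.64 between CCL3 and CCL4, 0.12 between CCL3 and IL1B and -0.02 between CCL4 and IL1B. In all 962 cells the same values were 0.90, 0.67 and 0.66. The cells share a library, and membership sets a lower limit on the sum of the 3 genes, so these are descriptions.

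IL1B varied with other inflammatory genes within the 320 cells, with rho of 0.41 to CCL20, 0.36 to TNFAIP3, 0.35 to NFKBIA, 0.35 to IL6 and 0.31 to CXCL8. For CCL3 the values were -0.02, -0.17, -0.03, -0.09 and 0.15. Of 3430 genes compared in pools by the largest ranking gene, 13 were at least 1.5-fold higher where IL1B was the largest than in both other pools, and 23 were lower. CCL20 stood at 621 CPM where IL1B was largest against 374 (CCL3 largest) and 353 (CCL4 largest), and CXCL3 at 275 against 152 and 173. Lower were EGR2, a transcription factor of the immediate early kind (41.1 against 98.9 and 97.8 CPM), TXNIP (40.6 against 78.8 and 132) and EGR1 (97.5 against 163 and 191). These pools were formed after the data had been seen. Their median depths were 23231, 23693 and 20727 UMIs.

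The 1375 dividing macrophages of day 12 were outside the rule, and 357 of them (26.0%) passed the same dividing score. When they were split by the score in the same way (458 against 458 cells, a comparison added after the data had been seen), 341 of 4210 genes were at least 1.5-fold higher (8.1%), 242 of them at least 2-fold (5.75%), and 474 lower (11.3%). Of the 189 leading genes, 164 reached 50 CPM there, and counting all 189, 185 were at least 1.5-fold higher, with a median log2 ratio of 2.31. CXCL8 stood at 2385 against 94.8 CPM, IL6 at 239 against 24.4 and NFKBIA at 996 against 73.5. MARCO was an exception, at 88.2 against 62.4 CPM (0.50) in dividing cells and 478 against 86.5 (2.47) in non-dividing ones. The other leading genes under 1.5-fold in dividing cells were CNKSR3 (0.39), STEAP4 (0.39) and the CC chemokine gene CCL1 (-0.17). MERTK stood at 39.2 against 84.4 CPM, a log2 ratio of -1.10 that lies beside -1.11 in non-dividing cells. Dividing cells were deeper, with a median of 37665 UMIs.

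Chemokine-high cells were not found at the earlier days. The day 7 library had 0 macrophages in 6767 cells, which allows a share of up to 0.0443%. The day 9 library had 64 macrophages in 11727 cells, of which 14 were non-dividing and 0 passed the dividing score (0%; exact 95% interval 0 to 23.2). At day 12 the share was 33.3% of 962 by construction (30.3 to 36.3). Median depth over all cells was 24562, 13262 and 17097 UMIs at days 7, 9 and 12. The day 9 share rests on 14 cells.

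The bulk libraries took no part in the rule, so the leading genes were read there with tests (limma on log2 of TPM plus 1, Benjamini-Hochberg adjusted over all genes tested). In bulk RNA, a change in the share of cells of a type and a change in RNA per cell cannot be told apart. Of 13131 genes tested between 3D and 2D macrophages at day 12, 1773 rose (13.5%) and 3313 fell (25.2%). Of 175 leading genes tested, 95 rose, which is 54.3%, 8 fell and 72 did not pass. The median log2 change of the leading genes was 0.81 against -0.21 for all genes. Every leading gene had reached 50 CPM in the 3D single-cell library, a filter that was not set on the other genes tested. That filter can favour genes high in 3D, so the share is not read as an excess over all genes. With libraries scaled to a common median ratio, 2427 of all genes rose and 2612 fell, the median of all genes was -0.04, and 104 leading genes rose and 4 fell. COL1A1, the stromal collagen, was at 0.28 to 9.33 TPM in the 3D and 0 to 0.13 TPM in the 2D libraries.

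The genes that define the cells were all higher in 3D. CCL3 stood at 2281, 2246, 1975 and 2041 TPM in the 4 3D libraries and at 136, 146, 167 and 136 in the 2D ones. The groups do not overlap, and the log2 change was 3.86 (SE 0.10, limma adjusted p = 1.54e-08). The mean of CCL4 was 86.6 ± 22.6 TPM in 2D and 1765 ± 161 in 3D (SD, n = 4 in each), a change of 4.37 (SE 0.18, limma adjusted p = 3.78e-07). IL1B stood at 1016, 1120, 1090 and 1203 TPM in 3D and at 52.6, 65.8, 58.7 and 56.4 in 2D. Its change was 4.22 (SE 0.11, limma adjusted p = 1.54e-08).

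Chemokines and cytokines outside the score moved the same way. CXCL8 stood at 227, 299, 338 and 364 TPM in 3D and at 19.1, 10.2, 18.6 and 14.0 in 2D, without overlap (4.24, SE 0.22, limma adjusted p = 1.35e-06). IL6 stood at 197, 173, 174 and 109 TPM against 0.33, 6.12, 3.57 and 1.30, again without overlap (5.66, SE 0.46, limma adjusted p = 1.62e-05). NFKBIA rose from 158 ± 18.3 to 978 ± 70.2 TPM (2.63, limma adjusted p = 3.78e-07), and TNF from 47.7 ± 11.8 to 194 ± 33.0 TPM (2.03, limma adjusted p = 5.41e-05). IL1RN rose from 43.6 to 340 TPM at the mean (2.93, limma adjusted p = 1.6e-06). TNIP3 was listed at 0 in all 2D libraries and at 7.24 to 11.2 TPM in 3D.

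Other leading genes rose less, did not pass or fell. NFKB1 stood at 10.4, 9.43, 6.07 and 14.6 TPM in 3D and at 3.39, 4.22, 5.81 and 5.15 in 2D, without overlap (0.94, limma adjusted p = 0.0206). That call was lost without 2D replicate 1 (0.83) or without 3D replicate 4 (0.76). IRAK2 was at 1.61 and 2.07 TPM (0.24, limma adjusted p = 0.549). RELB, a subunit of the alternative NF-kB pathway, fell from 41.7 to 17.6 TPM (-1.20, limma adjusted p = 0.000349), and TNIP1, a partner of A20, fell by 0.59 (limma adjusted p = 0.0292). The other 6 that fell were SEMA6B, SLC43A2, SLC7A5, EHD1, PSTPIP2 and ASMTL. These 8 are named because the count is small, after their values were seen. Between 4 and 7 of the leading genes fell when 1 library was left out, with 4 without 2D replicate 4, and 5 without 2D replicate 3 or 3D replicate 3.

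Macrophage markers in the same libraries differed less or unevenly. CD14 rose from 516 ± 64.1 to 954 ± 109 TPM (0.89, limma adjusted p = 0.000294), and C1QA was at 712 and 773 TPM (0.11, limma adjusted p = 0.416). MERTK, low in chemokine-high cells, was higher in 3D than in 2D, at 9.96 against 3.85 TPM (1.24, limma adjusted p = 0.0078).

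**Figure D5:**
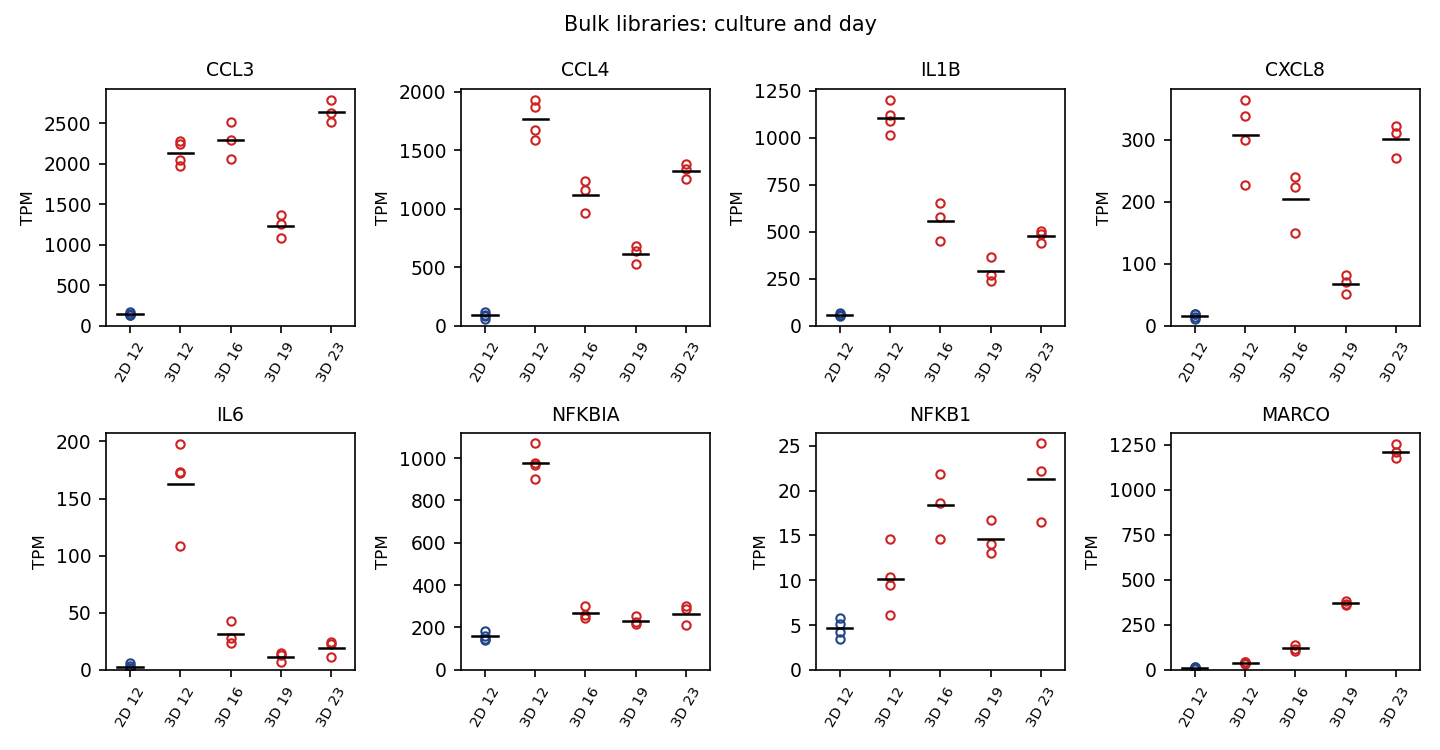
TPM (y axis, from 0) of 8 genes in single bulk libraries (open circles) of 2D macrophages at day 12 and 3D macrophages at days 12, 16, 19 and 23 (x axis), with the group mean as a bar. The 4 3D day 12 libraries of CCL3, IL1B, CXCL8, IL6 and NFKBIA all lie above the 4 2D ones, IL6 and NFKBIA are lower at every later day, and MARCO is highest at day 23.

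Later 3D libraries showed the leading genes going different ways. The 3 comparisons with day 12 share its 4 libraries, so they are not independent, and each is given on its own. Here too the leading genes, unlike all genes, had been filtered on their level in 3D cells of day 12. Of 12795 genes tested, 2030 were higher at day 16 (15.9%) and 1432 lower (11.2%), and of 176 leading genes 49 rose and 34 fell (median 0.16 against 0.18 for all genes). Day 19 had 1286 genes up (10.1%) and 1406 down (11%), with 26 leading genes up and 64 down (median -0.35 against 0.04 for all genes). Day 23 had 1908 up (14.9%) and 2898 down (22.6%), with 40 leading genes up and 67 down (median -0.32 against -0.12). At day 16, common median-ratio scaling turned the split over all genes to 1417 up and 1937 down, and the leading genes to 40 up and 37 down. Without day 16 replicate 1, 21 leading genes fell.

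The 3 ranking genes parted with time. CCL3 stood at 2136 ± 151 TPM at day 12 (n = 4), 2285 ± 230 at day 16, 1232 ± 140 at day 19 and 2640 ± 138 at day 23 (n = 3 each). Against day 12 it was 0.10 at day 16 (limma adjusted p = 0.513) and fell by 0.80 at day 19 (limma adjusted p = 6.29e-05). Its rise of 0.31 at day 23 (limma adjusted p = 0.0249) was lost without day 12 replicate 3 (0.27) or day 23 replicates 1 (0.31) or 3 (0.27), and without the filter on low genes. IL1B fell at all 3 days, from 1107 ± 77.2 TPM to 559 ± 101, 290 ± 67.6 and 476 ± 32.9. Its changes were -0.998, -1.95 and -1.22 (limma adjusted p = 0.00026, 9.09e-07 and 2.76e-05). CCL4 fell to 1119 ± 140, 615 ± 80.9 and 1324 ± 67.4 TPM (limma adjusted p = 0.000794, 7.7e-07 and 0.0124). The day 23 call of CCL4 (-0.41) was lost without day 23 replicate 2 (-0.37) and with median-ratio scaling (-0.29).

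IL6 fell from 163 ± 38.0 TPM to 31.4 ± 9.83, 11.3 ± 4.05 and 19.4 ± 7.32 TPM, changes of -2.35, -3.76 and -3.05 (limma adjusted p = 0.000112, 2.07e-06 and 6.37e-06). NFKBIA fell from 978 TPM to 269, 232 and 265 at the mean (-1.86, -2.07 and -1.89; limma adjusted p = 3.7e-07, 1.59e-07 and 1.8e-07). IL1RN stood at 340, 7.22, 7.21 and 24.2 TPM at days 12, 16, 19 and 23. TNFAIP3 did not pass at any later day (limma adjusted p = 0.438, 0.191 and 0.562), with means of 48.8, 58.0, 37.8 and 44.0 TPM. CXCL8 fell by 2.17 at day 19 (limma adjusted p = 4.89e-06) and ranged from 227 to 364 TPM at day 12 and from 270 to 322 TPM at day 23 (-0.01, limma adjusted p = 0.978). MARCO rose through all days, from 39.4 ± 6.75 TPM to 121, 369 and 1213 at the mean (1.60, 3.21 and 4.93; limma adjusted p = 2.86e-06, 3.3e-09 and 1.26e-10).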

How the data were processed

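Single-cell values are raw UMI counts, deposited by the authors as matrices made with Cell Ranger 7.0.0 (day 12) and 7.1.0 (days 7 and 9), per the file headers. Bulk values are TPM, deposited by the authors in 1 table of 58735 genes and 32 libraries. The submitters' processing notes name Trim Galore 0.4.4, HISAT2, HTSeq 0.11.1, DESeq2 and the build hg38 (GRCh38) for the whole series, without saying which of them gave the TPM.

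Cells were filtered and ranked as the report states, with Python 3.11.15, scanpy 1.11.5 (Scrublet, expected doublet rate 0.06; called cells were kept) and scipy 1.17.1. UMIs were pooled per tercile and scaled to CPM; genes needed 50 CPM in either pool and were called at a ratio of 1.5. Cells were thinned to 5000 UMIs for detection shares, which left 315 chemokine-high, 314 middle, 311 lower-tercile and 3798 stroma cells and left out 5, 8, 9 and 128. Depth sets the precision: 7372541 UMIs were pooled for chemokine-high, 8088597 for middle and 8150390 for lower-tercile cells. For bulk, limma 3.58.1 (R 4.3.3, trend) was fitted to log2(TPM + 1) over genes with a mean of at least 1 TPM, with Benjamini-Hochberg adjustment at 0.05, and fold changes understate those of low genes. The 3D days were fitted together (13 libraries). Bulk depth is unknown; libraries had 11862 to 12933 genes at 1 TPM or more, replicates correlated at 0.910 to 0.953 and 0 pairs were identical. The limma fits were also run on simulated libraries with independent noise, and the outcome is not given here.

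Named genes were the 12 largest and 12 smallest ratios, the 3 ranking genes, up to 4 members per gene list with the largest ratios, and a fixed set. The cells, gene lists and tests were chosen with earlier results of these data known. Alternatives covered the scaling, ranking, filters, pseudocount and left-out libraries. Chromatin libraries and the other bulk groups were not used here.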

Additional observations from a re-analysis of the deposited data

Results flagged for a closer look

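Among 57 groups of 4 bulk libraries checked for a library far from the others, 2 held one, and chance gives about 1 in 20. CXCL3 in 3D day 12 replicate 1 stood at 28.4 TPM, below the other 3 libraries of its group at 50.7, 53.0 and 48.1 TPM. EGR3 in 3D day 12 replicate 4 stood at 2.56 TPM, below the other 3 at 3.89, 3.78 and 4.05 TPM. The cause was not tested for either.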

How the results depend on the processing

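Over 14 single-cell settings and 107 genes, 0 of 1498 ratios reversed. A floor of 20 CPM in place of 50 raised the genes at least 1.5-fold lower from 541 to 1553, because more low genes entered. Without cells rich in markers of other cell types (added after the data had been seen), the ratios of PF4 (0.36), PPBP (0.23), DSP (0.0001), PEG10 (0.18), H19 (0.081), HBG2 (0.051), TAGLN (0.73), HBZ (0.20) and COL1A1 (0.10) changed sign. PF4, PPBP, HBG2, TAGLN, HBZ and COL1A1 are among the markers that chose the removed cells, so their change follows in part from the removal. Over 21 bulk settings and 29 genes, 0 of 1827 results reversed the sign of a called change, 54 lost their call and 12 gained one. Sign changes of genes without a call were not counted, such as PTGS2 at day 19 (0.08, and -0.06 without day 19 replicate 1). The leading genes that fell in 3D against 2D numbered 8, and 4 with median-ratio scaling. They numbered 4 to 7 with 1 library left out. At day 16, leaving out 1 library gave 21 to 34 leading genes that fell.

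Replicate numbers did not pair the libraries: correlations of same-numbered libraries across the groups lay between -0.124 and 0.035. With the replicate number as a block, 1608 genes rose and 3021 fell in 3D against 2D, and 89 leading genes rose and 5 fell. Against day 12 the block gave 42 and 28 leading genes at day 16, 24 and 60 at day 19 and 39 and 66 at day 23. Of 116 gene results, 4 lost their call under the block: CXCL8, PLAUR and MERTK at day 16 and CCL3 at day 23.

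With 1 single-cell library per day, differences between cells have no replicate check. Genes under 50 CPM were left out of the counts over all genes and of the list counts.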
